A study of Mus musculus with 12 samples.

Results

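The desert hedgehog pathway was examined through 9 genes, Dhh, Ptch1, Hhip, Boc, Smo, Sufu, Gli1, Gli2 and Gli3, taken by symbol from the 24470 genes of the count table. Expression was measured by RNA-seq in whole mouse testes at E14.5, in 6 pools of 3 control testes (Nr2f2 f/f) and 6 pools of 3 Nr2f2 cKO testes (Wt1 CreER x Nr2f2 f/f). Both groups carried the floxed Nr2f2 allele, and embryos of both genotypes came from dams injected with tamoxifen on successive days before collection. The cKO embryos also carried the tamoxifen-inducible CreER expressed from Wt1, which is active in somatic progenitors and Sertoli cells, and the study describes recombination as incomplete among interstitial cells. All 9 genes passed the filter on low counts, with 362 to 7326 counts in each library.

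Desert hedgehog is the secreted hedgehog ligand of Sertoli cells. It binds Patched-1 on neighbouring interstitial cells, which releases Smoothened and lets the GLI transcription factors act. In the fetal testis this signal is known to promote fetal Leydig cell differentiation, and Ptch1, Hhip and Gli1 are themselves widely used as transcriptional readouts of the pathway.

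Libraries held 7044531 to 39965574 counts in control testes and 7322959 to 59404778 in cKO testes. Nr2f2 itself ran from 163 to 186 CPM (counts scaled to a common library size by TMM) in control testes and from 50.2 to 119 in cKO testes, with no overlap. In 4 libraries, control replicate 1 and cKO replicates 3, 5 and 6, the X-inactivation transcript Xist stood at 304 to 891 CPM, against 5.15 to 7.68 in the other 8. The summed level of 4 ovarian markers (Foxl2, Irx3, Fst and Rspo1) was 80.1 to 181 CPM in those 4 libraries and at most 28.8 in the others. Because of this, the changes of members and of the other genes singled out are given both over all 12 libraries and over 8. Those 8 had Xist under 100 CPM, 5 control and 3 cKO, and this comparison was chosen after seeing the data. Nr2f2 was at 75.4, 50.2 and 53.6 CPM in cKO replicates 3, 5 and 6, left out there, and at 78.9, 119 and 78.8 in replicates 1, 2 and 4. The comparison over 8 libraries therefore differs in residual Nr2f2 as well as in Xist. The summed level of 6 Sertoli markers, which define the testis, was 772 to 1181 CPM in control testes and 695 to 1176 in cKO testes. Its lowest values, 695 and 752, were those of cKO replicates 6 and 5, both with high Xist. None of the 6 markers was called between groups by edgeR.

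Among the 9 members, Hhip was called higher in cKO testes and the other 8 were not called. Over all 15572 genes tested, 8.13% were called, 3.28% higher and 4.85% lower, so 1 of 9 is close to the share among all genes. The groups overlapped for all 9 members, whereas they did not overlap for 5.52% of all genes, 2.39% with cKO above and 3.13% with cKO below. The median log2 fold change of the members was 0.037, beside 0.0030 for all genes. In whole-organ RNA, fewer cells of a type and less RNA per cell cannot be told apart.

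Dhh, the ligand, was at 71.4, 97.1 and 113 CPM (lowest, median and highest) in control testes and at 65.9, 89.2 and 101.5 in cKO testes. The groups overlapped over most of their range. The log2 fold change was -0.12 (SE 0.14, 95% interval -0.41 to 0.17, adjusted p = 0.61, edgeR quasi-likelihood test with Benjamini-Hochberg adjustment over all genes, as below). Relative to the summed Sertoli markers, Dhh stood at 94.0 ± 8.10 per 1000 marker CPM in control testes and 92.3 ± 4.11 in cKO testes (SD, n = 6 each, exact two-sided permutation test over 924 splits, p = 0.699). The gene lies at chr15:98891155-98898540 on the minus strand of mm10, as do the intervals that follow.

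Hhip encodes a membrane protein that binds hedgehog ligands and limits their range (chr8:79965851-80058008, minus strand). Its level was 96.2, 114, 104, 117, 90.6 and 112 CPM in control replicates 1 to 6, and 172, 160, 131, 154, 110.1 and 109.9 CPM in cKO replicates 1 to 6. The 4 highest cKO libraries lay above every control library, and the 2 lowest lay inside the control range. The mean rose from 106 ± 10.8 to 139 ± 26.6 CPM (SD, n = 6 each), a log2 fold change of 0.40 (SE 0.12, 95% interval 0.15 to 0.65, adjusted p = 0.0492 by edgeR), which is 1.32-fold. Over the 8 libraries with low Xist the log2 fold change was 0.60 (SE 0.09, adjusted p = 0.00376 by edgeR), and the 3 cKO libraries, at 154 to 172 CPM, lay above all 5 control libraries, at 90.6 to 117. The call was lost when any 1 of control replicates 2 to 6 or cKO replicates 1 to 4 was left out, with log2 fold changes of 0.33 to 0.46 and adjusted p up to 0.106 over the leave-one-out fits. It was also lost with limma-voom (adjusted p = 0.056), with a replicate block (0.0519) and with no filter on low counts (0.0596). DESeq2 kept it (adjusted p = 0.0175).

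Ptch1 encodes the receptor that holds Smoothened in check (chr13:63511533-63565520, minus strand). It was at 70.1, 146 and 172 CPM (lowest, median and highest) in control testes and at 107, 159 and 187 in cKO testes. The groups overlapped, and 3 cKO libraries lay above every control library. Its log2 fold change was 0.17 (SE 0.20, 95% interval -0.25 to 0.59, adjusted p = 0.617), and 0.042 without control replicate 5, the lowest library. Over the 8 libraries with low Xist it was 0.47 (adjusted p = 0.175), where the 3 cKO libraries, at 173 to 187 CPM, lay just above the highest control library.

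Boc encodes a co-receptor that presents ligand to Patched (chr16:44485045-44558870, minus strand). It was at 70.0, 74.4 and 105 CPM in control testes and at 68.7, 73.3 and 79.5 in cKO testes. The cKO range lay almost entirely inside the control range, whose top was a single library, control replicate 1. The change on the log2 scale was -0.11 (SE 0.09, 95% interval -0.31 to 0.085, adjusted p = 0.462), and -0.030 over the 8 libraries with low Xist (adjusted p = 0.802).

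**Figure D1:**
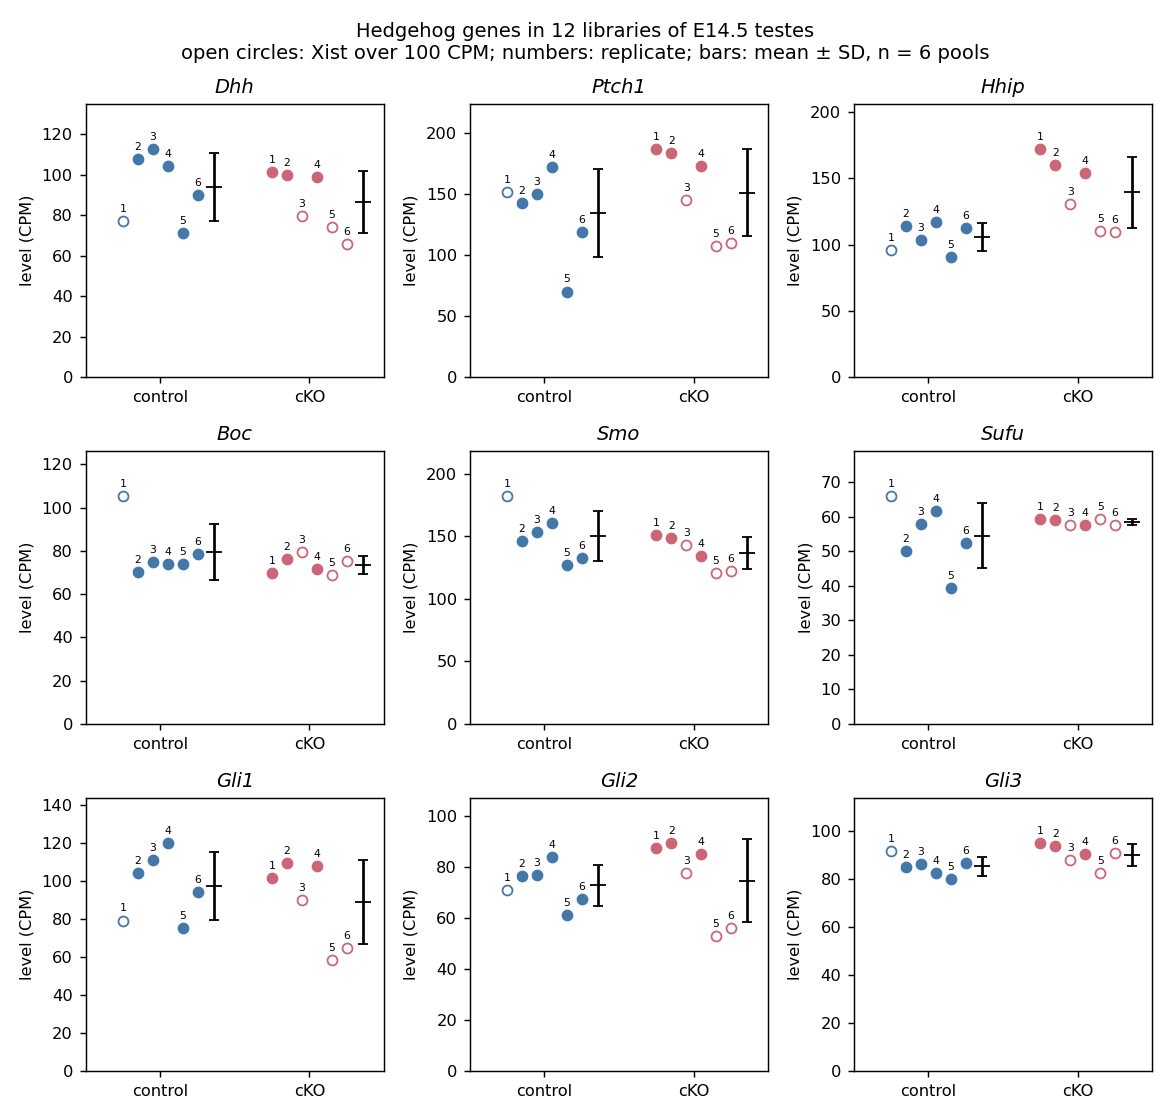
Level of each of the 9 hedgehog pathway genes in every library, in CPM after TMM scaling, in 6 control and 6 cKO pools. Points are libraries numbered by replicate, open circles are those with Xist over 100 CPM, and bars give the mean and SD. For Hhip, 4 of 6 cKO libraries lay above all control libraries, and the groups overlapped for all 9 genes.

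Smo encodes Smoothened, the transducer that Patched restrains (chr6:29735497-29761366, plus strand). It was at 127, 150 and 182 CPM in control testes and at 121, 139 and 151 in cKO testes. The groups overlapped, with 2 cKO libraries under every control library. On the log2 scale the change was -0.14 (SE 0.09, 95% interval -0.33 to 0.058, adjusted p = 0.357).

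Sufu encodes the cytoplasmic inhibitor that binds GLI proteins (chr19:46396896-46488804, plus strand). Its 6 cKO libraries fell between 57.6 and 59.4 CPM, all inside the control range of 39.4 to 66.0. The coefficient of variation was 17.4% in control testes and 1.51% in cKO testes, which is below the counting error of every cKO library (1.70% to 4.78%), so the narrow cKO spread is not a measure of how alike the pools were. Its log2 fold change was 0.094 (SE 0.10, 95% interval -0.12 to 0.31, adjusted p = 0.575), and 0.17 over the 8 libraries with low Xist (adjusted p = 0.373).

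Gli1 encodes an activator and is itself switched on by hedgehog signalling (chr10:127329882-127341579, minus strand). It was at 75.3, 99.1 and 120 CPM in control testes and at 58.5, 95.9 and 109 in cKO testes. The groups overlapped, and the 2 lowest libraries of all were cKO replicates 5 and 6. The log2 fold change was -0.13 (SE 0.16, 95% interval -0.48 to 0.22, adjusted p = 0.643). The end of Gli1 overlaps that of Arhgap9 on the opposite strand, and reads were counted by strand.

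Gli2 encodes the main activator that acts before Gli1 (chr1:118834061-119053619, minus strand). It was at 61.1, 73.8 and 84.1 CPM in control testes and at 52.9, 81.3 and 89.4 in cKO testes. The cKO libraries fell on both sides of the control range, with 3 above and 2 below every control library. Its log2 fold change was 0.037 (SE 0.13, 95% interval -0.24 to 0.32, adjusted p = 0.883).

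Gli3 encodes the factor that serves largely as a repressor when ligand is absent (chr13:15463723-15730026, plus strand). It was at 80.0, 85.5 and 91.4 CPM in control testes and at 82.5, 90.5 and 94.9 in cKO testes. Its groups overlapped, and its libraries spread less around their means than those of any other member in control testes. The log2 fold change was 0.078 (SE 0.05, 95% interval -0.040 to 0.20, adjusted p = 0.387).

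**Figure D2:**
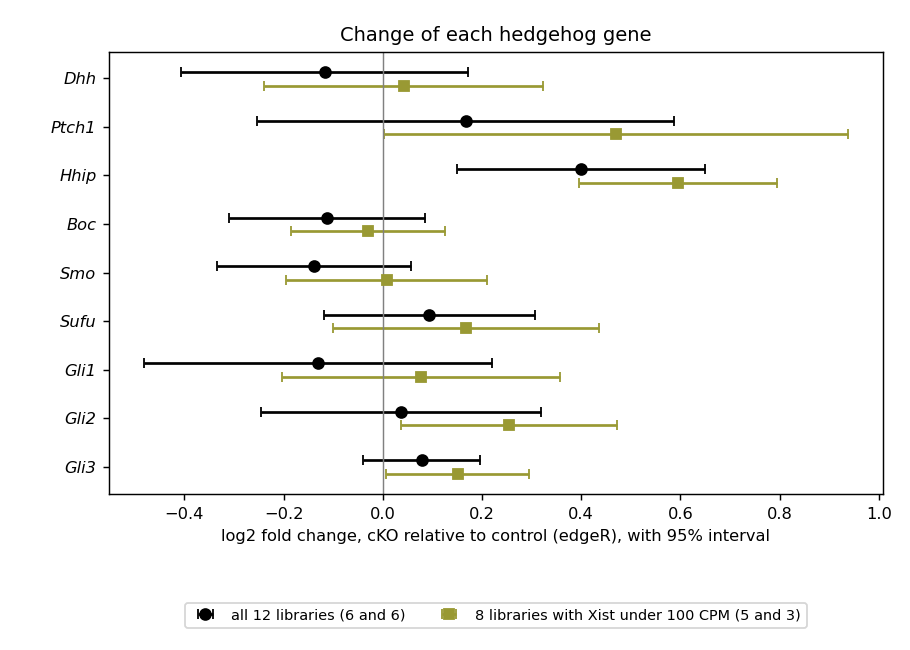
Log2 fold change of cKO over control for each member, with 95% intervals, over all 12 libraries and over the 8 with Xist under 100 CPM. Hhip stood at 0.40 and 0.60, and Ptch1 at 0.17 and 0.47.

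For 5 of the 9 members, Dhh, Ptch1, Hhip, Gli1 and Gli2, the 3 lowest cKO libraries were replicates 3, 5 and 6, the cKO libraries with high Xist. Boc, Smo, Sufu and Gli3 did not follow this order, and for Boc and Gli3 cKO replicate 6 was among the 3 highest. The share of all genes in this order was not computed, so 5 of 9 is a description only. Dhh was at 98.7 to 101.5 CPM in cKO replicates 1, 2 and 4 and at 65.9 to 79.7 in replicates 3, 5 and 6. Gli1 was at 102 to 109 and 58.5 to 90.0 CPM in the same libraries, and Gli2 at 85.0 to 89.4 and 52.9 to 77.6. The Sertoli marker sum was 1062 to 1176 CPM in cKO replicates 1, 2 and 4 and 695 to 879 in the others. The summed interstitial markers Pdgfra, Tcf21, Wnt5a and Inhba were at 774 to 929 and 505 to 727 CPM in the same order. The part of these marker levels in the members' values was not tested.

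Over the 8 libraries with low Xist, Ptch1, Hhip, Gli2 and Gli3 were each higher in all 3 cKO libraries than in all 5 control libraries, and no member was lower in all 3. Among all genes, 14.1% lay above in this way and 14.1% below, and 7.08% were called by edgeR, with Hhip the 1 member called. The log2 fold change of Gli2 was 0.25 (adjusted p = 0.129) and that of Gli3 was 0.15 (adjusted p = 0.165). Dhh, Smo and Gli1, which were negative over 12 libraries, were at 0.042, 0.0080 and 0.077 (adjusted p = 0.847, 0.962 and 0.707).

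Because several members moved together across libraries, each pair was also compared as a ratio of counts within a library, which does not depend on scaling. Of 36 pairs, 4 did not overlap between the groups, and all 4 held Hhip. Hhip to Gli1 ran from 0.933 to 1.21 in control testes and from 1.42 to 1.88 in cKO testes. Hhip to Dhh ran from 0.922 to 1.27 and from 1.49 to 1.70, with means of 1.15 ± 0.137 and 1.61 ± 0.0758 (SD, n = 6 each). Thus every cKO pool, including those with high Xist, had more Hhip relative to ligand and to Gli1 than every control pool.

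As a background, the ratio of each other gene to Gli1 was above control in all cKO libraries for 1.18% of 15571 genes, and that to Dhh for 1.32%. Hhip to Gli2 also separated, at 1.35 to 1.66 against 1.68 to 2.08, where the background was 1.03%. Hhip to Smo separated at 0.528 to 0.847 against 0.896 to 1.15, with a background of 8.09%. By contrast Hhip to Ptch1 overlapped, at 0.634 to 1.29 and 0.873 to 1.02. Its overlap rested on control replicates 5 and 6, at 1.29 and 0.945, since the other control libraries were at 0.634 to 0.801. Ptch1 to Gli1 overlapped as well, at 0.931 to 1.92 and 1.60 to 1.84. That overlap rested on control replicate 1, since the other 5 control libraries were at 0.931 to 1.43. Gli1 to Dhh, a transcriptional readout over its ligand, overlapped too, at 0.968 to 1.15 and 0.791 to 1.13. These ratios share members and libraries, so they are given as a description with no test.

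**Figure D3:**
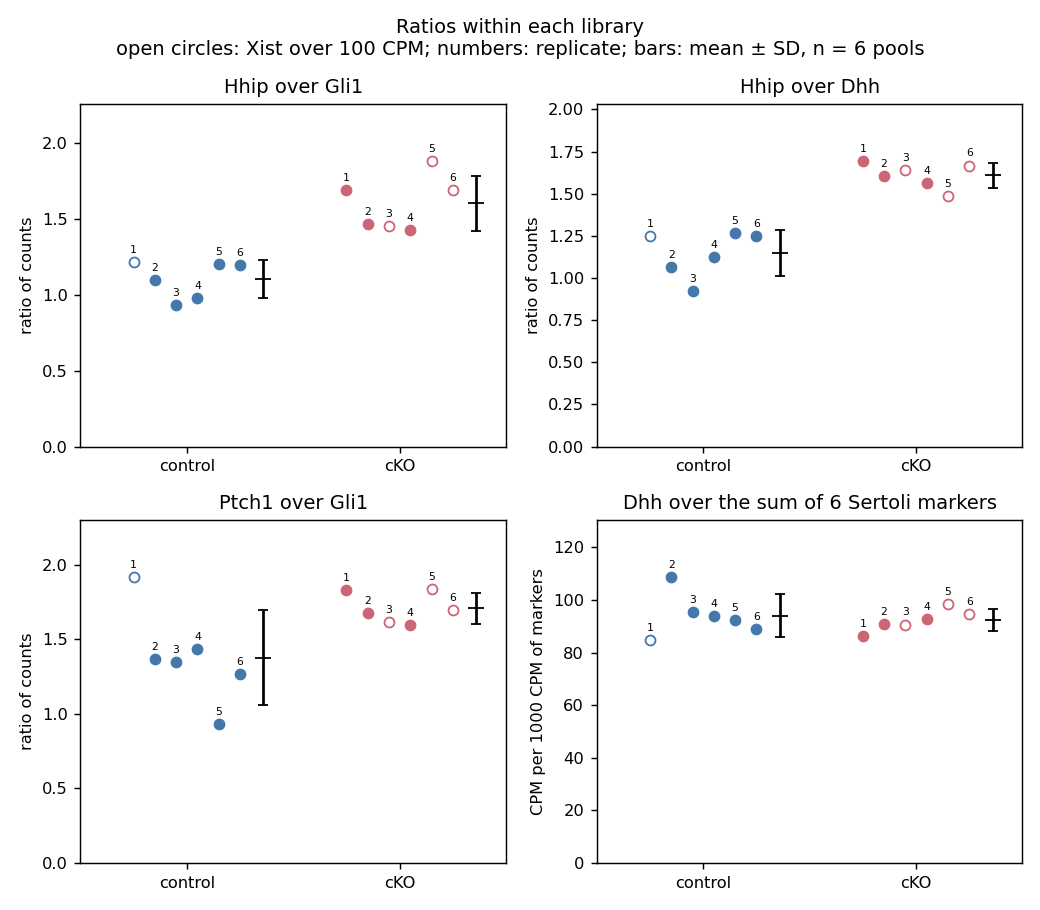
Ratios of counts within each of the 6 control and 6 cKO libraries, for Hhip over Gli1, Hhip over Dhh and Ptch1 over Gli1, and Dhh in CPM per 1000 CPM of the summed Sertoli markers, with open circles for libraries with Xist over 100 CPM and bars for the mean and SD. Hhip to Gli1 and Hhip to Dhh lay higher in all 6 cKO libraries than in all 6 control libraries, and the other ratios shown overlapped.

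Upstream sequences are shown for Hhip, the member that was called, and for the ligand Dhh and the activator Gli2, against which its ratio separated. They are the 250 bases before the start site in the RefSeq table (GRCm38.p6), written 5′ to 3′ on the gene's strand. Capitals mark the core of the GLI binding site, CCACCC or its reverse GGGTGG.
Hhip: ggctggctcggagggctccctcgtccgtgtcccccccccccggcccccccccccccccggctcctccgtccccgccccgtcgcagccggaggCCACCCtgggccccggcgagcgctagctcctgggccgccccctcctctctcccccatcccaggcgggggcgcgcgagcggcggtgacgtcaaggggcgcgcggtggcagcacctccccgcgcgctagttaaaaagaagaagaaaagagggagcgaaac
Dhh: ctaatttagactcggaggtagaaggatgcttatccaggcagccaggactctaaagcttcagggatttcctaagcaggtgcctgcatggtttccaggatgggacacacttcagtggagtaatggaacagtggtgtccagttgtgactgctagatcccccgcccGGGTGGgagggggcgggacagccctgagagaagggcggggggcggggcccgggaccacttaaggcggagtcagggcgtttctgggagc
Gli2: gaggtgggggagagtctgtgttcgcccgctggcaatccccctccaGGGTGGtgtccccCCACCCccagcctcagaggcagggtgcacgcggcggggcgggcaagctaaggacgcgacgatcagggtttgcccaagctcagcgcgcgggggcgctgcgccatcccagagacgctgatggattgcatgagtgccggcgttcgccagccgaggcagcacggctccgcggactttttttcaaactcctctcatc
The Hhip window is chr8:80058009-80058258, that of Dhh is chr15:98898541-98898790 and that of Gli2 is chr1:119053620-119053869, all on the minus strand. Their G and C content was 76.0%, 59.6% and 67.2%, beside a median of 52.4% for all promoters in the table. The core was found in 5 of the 7 members with an entry (Dhh, Hhip, Smo, Gli2 and Gli3) and in 28.1% of 32851 promoters. The longer GLI site GACCACCCA, or TGGGTGGTC, which holds the core, was found in 0.225% of promoters and in none of the 7. The nuclear receptor element AGGTCA, or TGACCT, recognised by the NR2F family, was found in 14.0% and in none of the 7. Gli1 and Boc had no entry. A match is a description of these letters, not a binding site.

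Levels of different members were compared per kilobase of exon, on GENCODE M21 exon lengths. In control testes Smo was highest at 26.8 ± 3.54 CPM per kilobase, followed by Dhh at 21.3 ± 3.86, Gli1 at 19.5 ± 3.56 and Boc at 17.8 ± 2.91 (SD, n = 6). Lower were Hhip at 11.7 ± 1.19, Gli2 at 10.6 ± 1.17, Ptch1 at 9.47 ± 2.53, Gli3 at 8.89 ± 0.409 and Sufu at 7.10 ± 1.23. Each neighbour in this order overlapped the next over the 6 libraries, except Boc and Hhip. The order was the same in cKO testes. It holds only for the union of exons: with the longest transcript, Sufu was at 12.1 and Hhip at 11.7 in control testes.

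The rest of the pathway was followed in a list of 44 genes by role, of which 42 passed the filter. Of these, 3 were called higher (Ccnd1, Ccnd2 and Cul3), 2 were called lower (Gas1 and Cdon) and 37 were not called, and their median log2 fold change was -0.011. This is 5 of 42, beside 8.13% of all genes.

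The 2 genes that were lower both encode co-receptors that help ligand reach Patched. Gas1 (chr13:60174405-60177535, minus strand) was at 102, 118 and 152 CPM in control testes and at 76.6, 78.4 and 97.8 in cKO testes. All 6 cKO libraries lay below all control libraries, and the log2 fold change was -0.58 (SE 0.10, adjusted p = 0.00298), and -0.65 over the 8 libraries with low Xist (adjusted p = 0.0126). Cdon (chr9:35452076-35507652, plus strand) was at 189, 198 and 227 CPM in control testes and at 159, 168 and 177 in cKO testes, again with no overlap. Its log2 fold change was -0.27 (SE 0.06, adjusted p = 0.0127), and over the 8 libraries with low Xist it was -0.25 and no longer called (adjusted p = 0.0597). Boc, the third co-receptor of this kind and a member above, overlapped between groups. Lrp2, of the same class and picked out after its values were seen, overlapped too and was not called by edgeR. It was at -0.42 on the log2 scale (adjusted p = 0.0802), and -0.56 over the 8 libraries with low Xist (0.0623).

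The 4 interstitial markers summed to 870 to 1152 CPM in control testes and 505 to 929 in cKO testes, with Tcf21 (-1.03) and Wnt5a (-0.64) called lower. The summed fetal Leydig markers (Cyp11a1, Cyp17a1, Hsd3b1, Star and Insl3) ran from 1561 to 2910 CPM in control testes and from 841 to 1745 CPM in cKO testes, with 4 of 5 called lower. The contractile markers (Acta2, Myh11 and Tagln) ran from 319 to 434 and from 177 to 275 CPM, with all 3 called lower. Higher were the macrophage markers (Csf1r, Cx3cr1 and Adgre1), at 22.9 to 28.7 and 34.2 to 43.7 CPM with 2 of 3 called. Genes listed as mesonephric epithelium markers (Pax2, Pax8, Cdh16 and Lhx1) were higher too, at 6.35 to 12.6 and 13.3 to 18.9 CPM with 2 of 4 called. Those called were Pax8 and Lhx1, and the study uses Pax8 to mark supporting-like cells of the gonad. Pax2 was at most 1.36 CPM and Cdh16 at most 1.16 in any library. Of all these markers only Cdh16 was at 0, in control replicate 6, and their part in the fall of Gas1 and Cdon was not tested.

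Among genes known as hedgehog targets in other tissues, Ccnd1 and Ccnd2 were called higher. They encode D-type cyclins, which drive entry into the cell cycle and answer to many signals. Ccnd1 (chr7:144929931-144939925, minus strand) was at 35.0, 42.8 and 48.5 CPM in control testes and at 68.4, 81.3 and 104 in cKO testes. All cKO libraries lay above all control libraries, and the rise was 2.02-fold, a log2 fold change of 1.02 (SE 0.12, adjusted p = 0.000177), and 0.90 over the 8 libraries with low Xist (adjusted p = 0.0015). Ccnd2 (chr6:127125708-127151048, minus strand) was at 248, 276 and 297 CPM in control testes and at 320, 360 and 377 in cKO testes. It did not overlap either, and its log2 fold change was 0.35 (SE 0.06, adjusted p = 0.00328), and 0.31 over those 8 libraries (adjusted p = 0.0398). The other 4 tested genes of this class were not called by edgeR over 12 libraries. Bcl2, which encodes an inhibitor of apoptosis and was picked out after its values were seen, was at 0.35 on the log2 scale (adjusted p = 0.060) and was called over the 8 libraries with low Xist, at 0.43 (adjusted p = 0.0139). It was also called by DESeq2, with the replicate block and without control replicate 1. Foxf1, a forkhead factor picked out in the same way, was at -0.59 (adjusted p = 0.101 by edgeR), with 5 of 6 cKO libraries below every control library. It was called lower by DESeq2 (adjusted p = 0.0425), by limma-voom (0.0374) and by edgeR without cKO replicate 2 (0.0208), and was at -0.25 over the 8 libraries with low Xist (0.351).

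Of 7 kinases and ubiquitin ligase parts that act on GLI proteins, Cul3 was called. Cul3 (chr1:80264923-80340690, minus strand), the scaffold of a ubiquitin ligase that degrades GLI proteins, was at 178, 197 and 228 CPM in control testes and at 221, 236 and 264 in cKO testes. In 5 of 6 cKO libraries it was above every control library, with a log2 fold change of 0.28 (SE 0.07, adjusted p = 0.0268), and 0.23 over the 8 libraries with low Xist, where it was not called (adjusted p = 0.0661). The call was lost when any 1 of control replicates 2, 4 or 6 or cKO replicates 3, 5 or 6 was left out, and with the replicate block (adjusted p = 0.0673), while its log2 fold change stayed at 0.25 to 0.32 over the leave-one-out fits.

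None of the other classes had a called gene by edgeR over 12 libraries. Of 17 genes that act at the primary cilium, where Smoothened signals, the smallest p belonged to Evc, at -0.22 (adjusted p = 0.0676). Evc was called by DESeq2 (adjusted p = 0.0112), by limma-voom (0.0399) and by edgeR without control replicate 5 (0.0434), whereas over the 8 libraries with low Xist it was -0.18 (0.193) and other leave-one-out fits gave up to 0.138. Scube2, which helps release ligand, was at -0.015 and became 0.92 without control replicate 1, where it was called (adjusted p = 0.0377), and 0.44 over the 8 libraries with low Xist (0.289). Of 5 tested genes for processing and release of ligand it belonged to Hhat, which attaches palmitate to hedgehog proteins, at -0.23 (adjusted p = 0.119), and -0.17 over the 8 libraries with low Xist (0.239). The other hedgehog ligands were near the floor, with Shh at 0.750 ± 0.208 and 0.646 ± 0.257 CPM and Ihh at 0.483 ± 0.135 and 0.486 ± 0.163 CPM in control and cKO testes (SD, n = 6 each). The log2 fold change of Shh was -0.34 (adjusted p = 0.435 by edgeR), and -0.50 over the 8 libraries with low Xist (0.296). That of Ihh was 0.0065 (adjusted p = 0.992), and 0.21 over the 8 libraries (0.658).

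**Figure D4:**
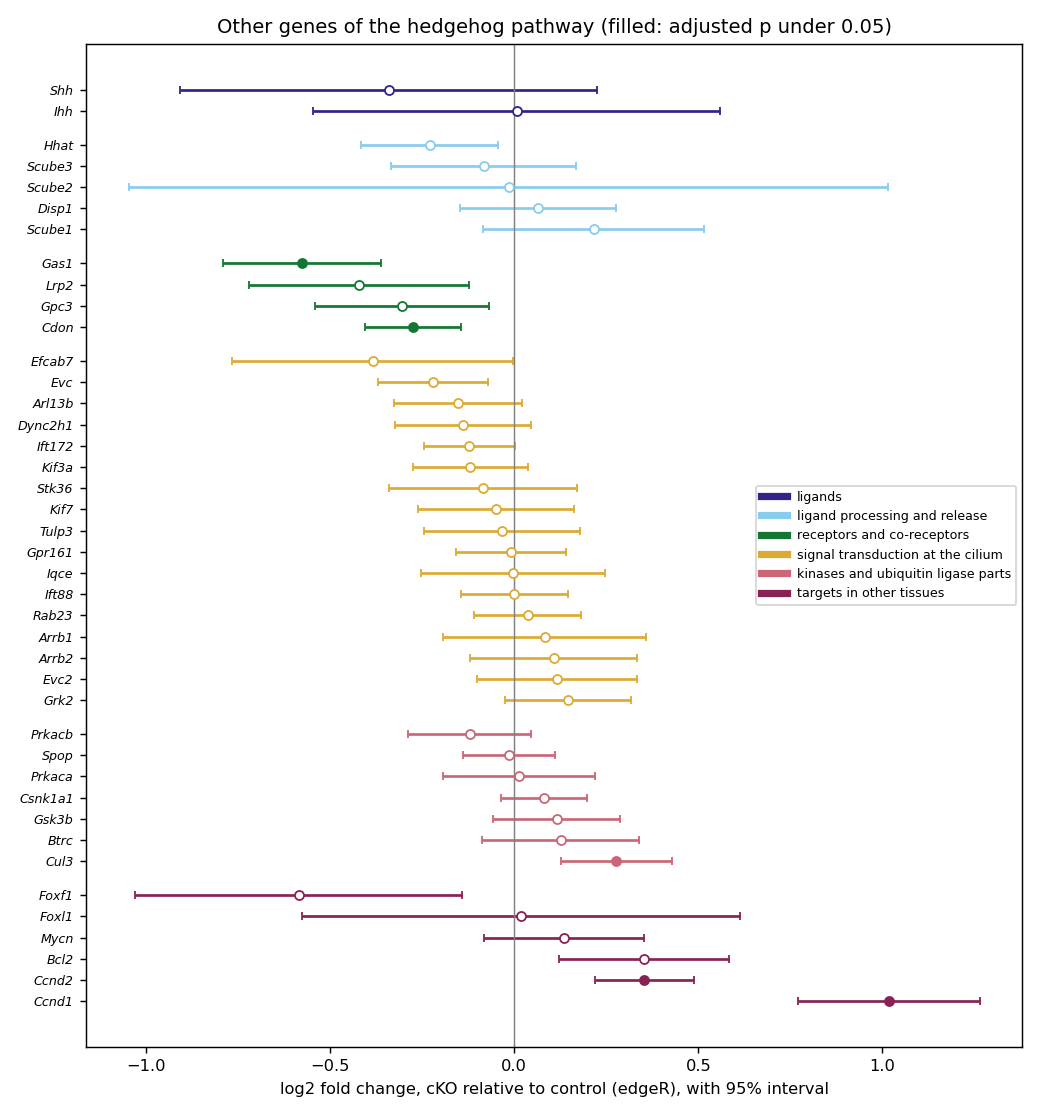
Log2 fold change of cKO over control, with 95% intervals, for 41 of the 42 other hedgehog pathway genes tested, grouped by role. Gas1 and Cdon lay below 0 and Cul3, Ccnd1 and Ccnd2 above it among called genes, with Ccnd1 the highest at 1.02.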

How the data were processed

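RNA of 3 pooled testes per library was sequenced after stranded mRNA preparation. The authors trimmed reads with Trim Galore 0.6.7, aligned them to mm10 with STAR 2.5 and counted read pairs by strand on RefSeq Curated gene models with featureCounts (Subread 1.5.0-p1). The deposited values are raw counts, not normalized or filtered. Here all 12 libraries were grouped by the genotype in their labels. Counts were fitted in R 4.3.3 with edgeR 4.0.16 (TMM, filterByExpr with minimum count 10 and minimum total 15, glmQLFit and glmQLFTest, no covariate), with Benjamini-Hochberg adjustment over 15572 genes and a threshold of 0.05. CPM were computed from TMM-scaled totals. The fit was also run on simulated counts with known changes, as a check of the code only. Counting error of a member was 1.17% to 5.26% per library. The spread between pools was larger for most members, but that of Sufu in cKO testes was under the counting error of all 6 libraries. The p-values set the difference between groups against the spread between these pools, taken as independent. The labels do not say that pools came from separate litters, so this independence is not known. The members and gene lists were chosen with earlier results of these data known. All members were described in full, wider genes were named if called or, in a class with none called, if their p was smallest, and Ihh, Bcl2, Foxf1, Lrp2 and Scube2 were added after their values were seen. Some listed genes are not reported here. Alternatives were other scalings, filters, DESeq2 1.42.0 (the tool of the authors), limma-voom (limma 3.58.1), a replicate block, and leaving out each library or the 4 with high Xist. Motifs were searched on both strands.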

Additional observations from a re-analysis of the deposited data

Results flagged for a closer look

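Boc in control replicate 1 stood apart from the rest of its group at 105 CPM, while the other 5 control libraries lay between 70.0 and 78.7. Its gap to the nearest library was 0.755 of the range of the group, above Dixon's 95% critical value for groups of 6. This was 1 of 18 groups of 6 tested, and chance flags about 1 in 20. Control replicate 1 was also the highest control library for Smo (182 CPM), Sufu (66.0) and Gli3 (91.4), and it is the control library with high Xist. Without it, the log2 fold change of Boc was -0.015 (adjusted p = 0.882 by edgeR), and the part of that library's makeup in the value was not tested.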

How the results depend on the processing

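Of 180 values for the 9 members under alternatives, 161 kept their direction and their side of the threshold. The 12 that lost the threshold were all of Hhip. It was 0.40 with no filter on low counts (adjusted p = 0.0596), 0.39 with limma-voom (0.056) and 0.39 with the replicate block (0.0519). Thus 0 members were called under these 3 settings. DESeq2 called Hhip, at 0.40 (adjusted p = 0.0175). Over the leave-one-out fits Hhip ran from 0.33 to 0.46, and the count of members called from 0 to 1. Leave-one-out fits moved other members too, uncalled throughout: Ptch1 from 0.042 to 0.25, Dhh from -0.18 to -0.048, Gli1 from -0.20 to -0.039, Sufu from 0.022 to 0.15, Smo from -0.18 to -0.078 and Boc from -0.15 to -0.015. The adjusted p of Hhip over all alternatives was 0.00376 to 0.106. The 7 that changed sign, none of them called, were Gli2 in 4 leave-one-out fits (range -0.019 to 0.12) and, without the 4 libraries with Xist over 100 CPM, Dhh (0.042), Smo (0.0080) and Gli1 (0.077), and the cause was not tested.

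Correlations of same-numbered libraries, with group means removed, ran from -0.46 to 0.28 over 2000 genes. In replicates 1, 3, 5 and 6 the control and the cKO library differed in Xist, so this does not settle whether they were paired. The replicate block lowered the SE of every member but Boc, for Ptch1 from 0.20 to 0.098 and for Gli2 from 0.13 to 0.084. The replicate block called 931 genes in place of 1266. DESeq2 called 9 of the wider pathway genes, 4 higher and 5 lower, adding Bcl2, which was higher, and Evc, Foxf1 and Lrp2, which were lower, and leave-one-out fits called 4 to 9. DESeq2 called 1919 genes in all, and leave-one-out fits called 816, without cKO replicate 4, to 3106, without control replicate 1. The share of calls that were higher was 40.3%, and 52.0% over the 8 libraries with low Xist. Ihh changed sign with limma-voom (-0.053), the replicate block (-0.053) and in leave-one-out fits (-0.11 to 0.14). Scube2 changed sign with DESeq2 (0.048), limma-voom (0.34), the replicate block (0.40), without the 4 libraries (0.44) and in leave-one-out fits (-0.19 to 0.92). With the longest transcript in place of the union of exons, the control level per kilobase was 39.8 for Smo, 24.0 for Gli1, 12.9 for Ptch1, 10.4 for Gli3 and 12.1 for Sufu, so the order depends on the length used, with Gli1 above Dhh (22.1) and Ptch1 and Sufu above Hhip (11.7).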

Other observations

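The genes whose level followed Gli1 most closely were sought among the 11881 genes that averaged 5 CPM or more, by Pearson's r over the 12 libraries after each group's mean was removed. They were Runx1t1, at 0.97, followed by Kremen2, Prickle1, Robo2 and Septin11, each at 0.96. Kremen2 encodes a co-receptor of WNT inhibitors, Prickle1 a planar polarity protein and Robo2 a receptor for SLIT ligands. None of these 5 was called between groups. Among the members, Gli2 followed Gli1 at 0.95, Dhh at 0.90 and Hhip at 0.90. The points share libraries, depth and the 4 libraries with high Xist, and these values are a description.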
